A study of Homo sapiens with 21 samples.

Results

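Replication-dependent histone genes encode the linker histone H1 and the core histones H2A, H2B, H3 and H4 that package newly copied DNA. They lie in clusters on chromosomes 6 and 1, are transcribed mainly in S phase, and mostly have no introns. Their mRNAs usually end in a conserved stem-loop, bound by the protein SLBP, in place of a poly(A) tail, although some of these genes also make longer, polyadenylated transcripts. Replication-independent histones, in contrast, mostly come from ordinary polyadenylated mRNAs.

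The members were chosen by gene symbol (H1-1 to H1-5 and every H2AC, H2BC, H3C and H4C gene), which gave 65 of the 60651 genes in the count table. RNA-seq was performed on 21 subcutaneous tumors of A549-Luc2, a luciferase-labelled line of the human lung adenocarcinoma cell line A549, grown in Matrigel in the hind flank of female athymic nu/nu mice aged 6 to 8 weeks. Once tumors were established, mice were randomized to groups of 10 and were given, daily by oral gavage, formulation alone (control), Oxy186 or Oxy210, both semisynthetic oxysterol derivatives, at 50 mg/kg. All groups, control included, received the same formulation of DMSO, ethanol, PEG400 and corn oil, and 7 tumors of each group were sequenced. The tumors grew from a single cell line in hosts that lack T cells, and each tumor also held mouse cells, whose reads the authors set aside. Nothing in the labels ties a tumor of one group to a tumor of another, so p-values measure the spread between tumors.

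Between 13787493 and 17865119 reads were counted on human genes in each tumor. The A549 check held, in that KRT8, KRT18, EPCAM, AKR1B10, AKR1C1 and ALDH1A1 had at least 1424 counts in every tumor and CDKN2A, which A549 cells have lost, had 0 in all 21. NKX2-1, a lung adenocarcinoma marker that A549 cells barely express, had at most 2. Of 14 stroma and blood markers, 9 fell below the filter on low counts, and LUM, COL1A1, DCN, ACTA2 and PECAM1 passed it, LUM with 566 to 3348 counts per tumor and COL1A1 with 256 to 1031. Oxy186-treated sample r1 stood apart for the histone genes, with a summed level of 360 CPM (counts scaled to each library's TMM-adjusted total) against 124 to 252 in the other 20 tumors. Values without r1 are therefore given beside the results that it moved most. In bulk tumors, a larger share of cells in S phase and more histone RNA per cell cannot be told apart.

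To find which members carry the processing signal, the genome (GRCh38) was searched after each stop codon for a stem-loop of 16 bases. All 65 members had a match, between 22 and 67 bases after the stop codon (median 35), in 10 distinct sequences. The members below are the 4 tested H4 genes and the highest member of each other family, and show how the histone H4 genes differ from the others. Capitals mark the stem-loop, and 5 bases on either side are in lower case.
H4C9 (chr6:27139649-27139674, + strand): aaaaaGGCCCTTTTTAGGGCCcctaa
H4C14 (chr1:149833027-149833052, + strand): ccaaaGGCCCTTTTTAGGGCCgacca
H4C5 (chr6:26204996-26205021, + strand): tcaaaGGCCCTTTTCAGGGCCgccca
H4C8 (chr6:26285126-26285151, - strand): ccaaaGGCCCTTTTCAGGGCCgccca
H2AC6 (chr6:26124664-26124689, + strand): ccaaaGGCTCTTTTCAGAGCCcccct
H2BC12 (chr6:27146361-27146386, - strand): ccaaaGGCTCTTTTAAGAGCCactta
H1-2 (chr6:26055739-26055764, - strand): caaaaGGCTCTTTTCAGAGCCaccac
H3C6 (chr6:26225591-26225616, + strand): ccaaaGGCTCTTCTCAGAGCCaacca

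The commonest form, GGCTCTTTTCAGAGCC, was found in 38 members and in no H4 gene. All 14 H4 genes opened their stem with GGCCCT, as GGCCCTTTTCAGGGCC in 9 genes, as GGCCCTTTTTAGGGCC in H4C9, H4C12, H4C14 and H4C15, and in another form in H4C13. Another form, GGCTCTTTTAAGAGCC, was found in 8 members, of which 5 encode H2B.

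The next question was which of these mRNAs the libraries measured. The sources used here do not state whether poly(A) RNA was selected. Of the 65 members, 5 (H1-1, H2AC1, H2AC15, H2BC1 and H4C6) had no count in any of 21 tumors, which allows a level of up to 0.00947 CPM over all libraries, and 38 members, those 5 included, never reached 10 counts in any tumor. Only 19 passed the filter on low counts over all tumors (filterByExpr in edgeR). These were H1-2 among 5 H1 genes, 3 of 16 H2A genes, 8 of 17 H2B genes, 3 of 13 H3 genes and 4 of 14 H4 genes. All members together had 60252 counts in 21 tumors, 67.5% of which came from the 5 highest genes and 92.7% from the 12 highest.

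**Figure D1:**
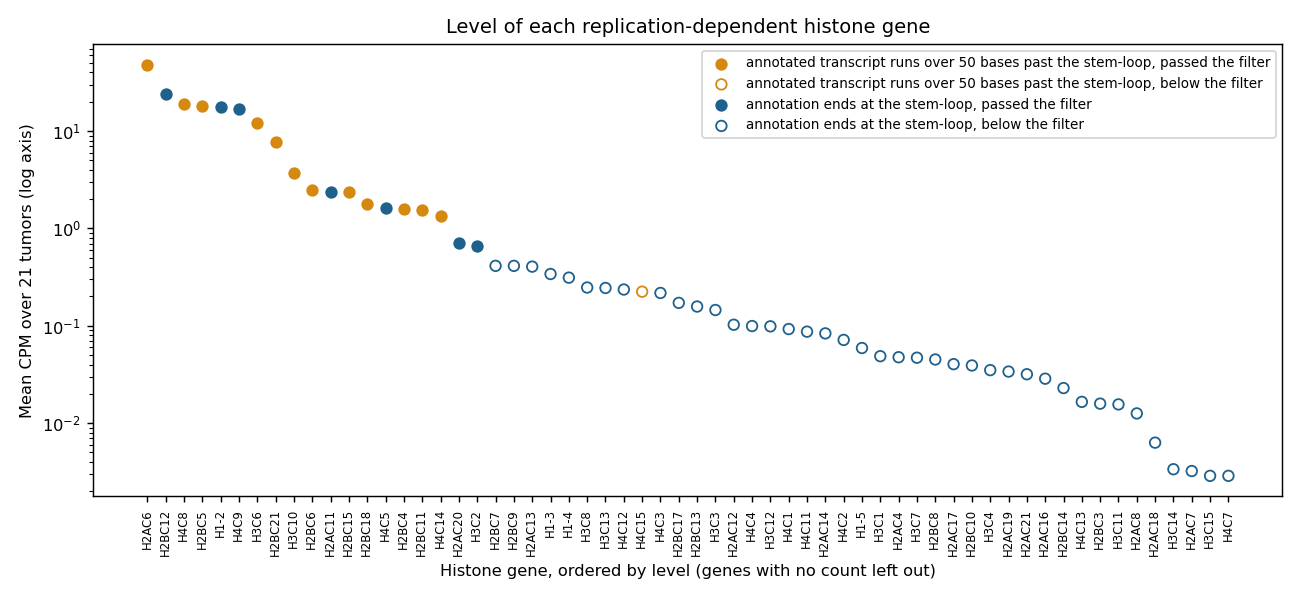
Mean CPM over 21 tumors (log axis) of the 60 members with any count, in order of level. Filled points passed the filter on low counts. Color separates genes with an annotated transcript ending over 50 genomic bases past the stem-loop from genes whose annotation ends there. Of the 19 filled points, 12 belong to the first kind.

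Measured members were mostly those with an annotated route to a longer transcript. In the GENCODE 44 annotation, 14 members have a transcript that ends over 50 genomic bases past the stem-loop (430 to 37155 bases, introns included). Whether these transcripts contain the stem-loop was not examined. Of the 14, 12 passed the filter, against 7 of the other 51. The 14 genes held 63.9% of all histone counts. Counts also depend on exon length, and the highest members per kb of exon, H2BC12 and H4C9, had no such transcript. The authors counted reads on an earlier GENCODE release. Gene counts do not show on which side of the stem-loop the reads fell. Among the 12 highest members, 8 had such a transcript, and H2BC12, H1-2, H4C9 and H2AC11 did not.

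For comparison, 27 small RNAs that carry no poly(A) tail were examined, and 24 of them fell below the filter, 13 with no count in any tumor. The signal recognition particle RNA RN7SL1 was the main exception, with 46 to 2657 counts. Such RNAs are often short or have near-copies, and only uniquely mapped reads were counted. Their low counts therefore cannot show whether poly(A) RNA was selected. H2BC12, H1-2, H4C9 and H2AC11 had at least 234, 180, 131 and 17 counts in every tumor.

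H2AC6, which encodes a histone H2A, was the most abundant member with a mean of 48.3 CPM, followed by H2BC12 (24.3 CPM), H4C8 (19.2 CPM), H2BC5 (18.3 CPM), H1-2 (17.8 CPM) and H4C9 (17.0 CPM). H3C6, the highest H3 gene, reached 12 CPM. H2BC21, H3C10, H2BC6, H2AC11 and H2BC15 followed with 7.78, 3.73, 2.50, 2.36 and 2.36 CPM. Divided by exon length, the order of the levels changed, to 49.1 CPM per kb for H2BC12, 42.9 for H4C9, 28.9 for H2AC6, 24.3 for H1-2 and 21.3 for H2BC5. The lengths include the annotated stretch past the stem-loop, so genes with a long annotation have the lower value per kb.

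Several members are near-copies of each other, and uniquely mapped reads count poorly in them. H4C14 and H4C15 share 100.0% of their 100-base windows, yet H4C14 had 7 to 77 counts per tumor and H4C15 had 0 to 8. Counts of H4C14 are therefore uncertain. H2AC18 and H2AC19 (2 and 11 counts in all tumors) and H3C14 and H3C15 (1 count each) were also near-identical, as were H4C11 and H4C12 over 90.7% and 91.3% of their windows (27 and 75 counts). H4C9, H4C5, H4C8, H2AC6, H2BC12, H2BC5, H1-2 and H3C6 shared no such window with another member. Reads may also come from a gene on the opposite strand where counting was not by strand, which the sources do not state. Such overlaps covered 30.9% of H2BC4, 28.2% of H2BC6, 13.3% of H4C8 and 9.84% of H2BC18.

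To learn whether members varied together, log2 CPM values were compared over the 21 tumors, which share one processing and differ in depth and base composition. Among the 171 pairs of the 19 members that passed the filter, the median Pearson r was 0.34, with 55 pairs above 0.5 and 24 below 0. Over the 20 tumors without Oxy186-treated r1 the median was 0.267, with 31 pairs above 0.5 and 33 below 0. The closest pair was H2AC6 and H2BC5 (r = 0.903), and the lowest r was that of H3C2 and H4C8 (-0.512). Each gene was also set beside the mean of the members, which includes the gene itself and in which more variable genes weigh more. H4C14, H3C10 and H2AC6 followed the mean of the members best (r = 0.915, 0.859 and 0.838), whereas H3C2, H2BC11 and H2BC4 followed it least (r = 0.073, 0.197 and 0.392) and H4C9 was at 0.521. Without r1 these values were 0.876, 0.839 and 0.78, then 0.158, 0.397 and 0.174, and 0.481 for H4C9, and H4C8 was then the lowest (0.108). H4C8 varied most, with an SD of 0.94 on the log2 scale, larger than that of 97.3% of all genes passing the filter, and H2BC12 varied least, with an SD of 0.33. Without r1 H4C8 was still the most variable (SD 0.81), and H2BC15 the least (SD 0.28).

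**Figure D2:**
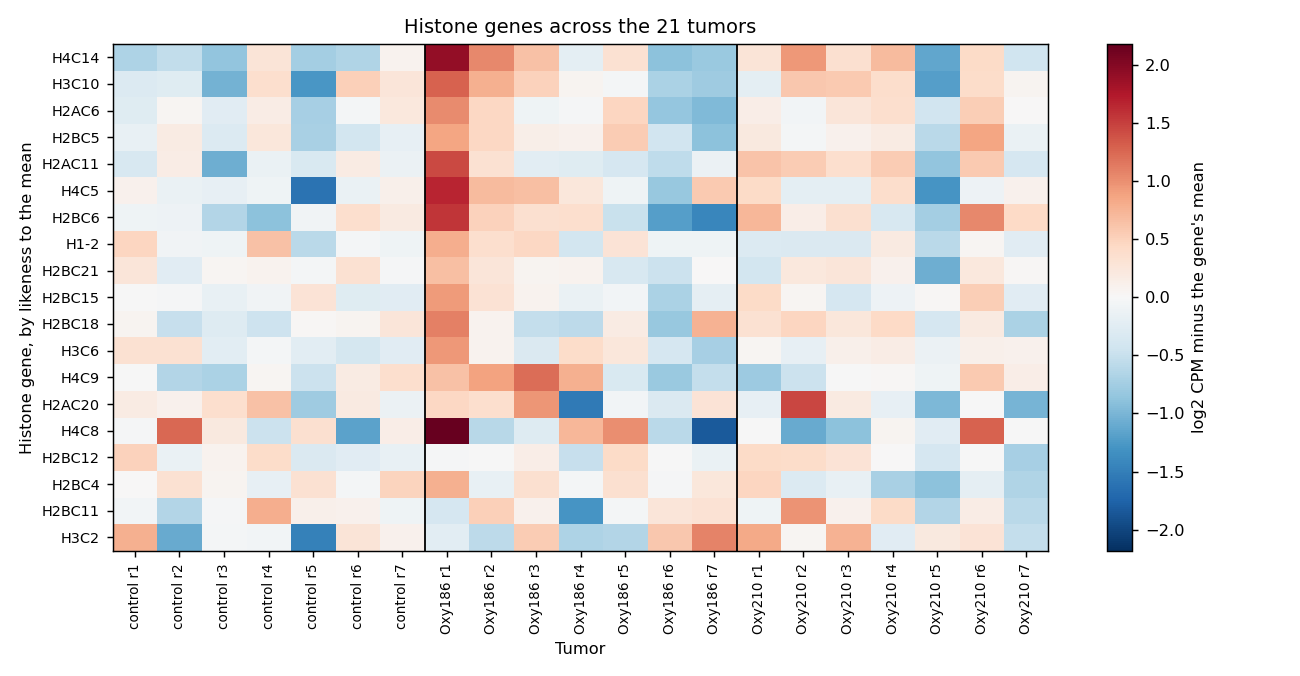
Log2 CPM minus the gene's own mean (color) for 19 histone genes (rows, ordered by their correlation with the mean of all 19) in 21 tumors (columns). Oxy186-treated sample r1 is the column with the most high values, with a mean of 0.93 over the 19 genes, while H4C9 is also high in r2, r3 and r4.

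The level of the members was set beside that of S-phase genes (26 genes such as MCM2 to MCM7, PCNA and RRM2). Over 21 tumors the mean of the 19 histone genes had r = -0.079 and Spearman's rho = 0.04 with the mean of the S-phase genes. Sample r1 of the Oxy186 group, highest for histone genes at 0.93, was at -0.50 for S-phase genes, the second lowest of 21 tumors. The histone mean had r = -0.297 and rho = -0.321 with each library's GC slope, which is the change of log2 CPM per 10 percentage points of exon GC content. Without r1 the r and rho were 0.184 and 0.185 with the S-phase genes, and -0.182 and -0.269 with the GC slope. These correlations are descriptions over tumors, and the part of S-phase genes in the results below was not tested.

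**Figure D3:**
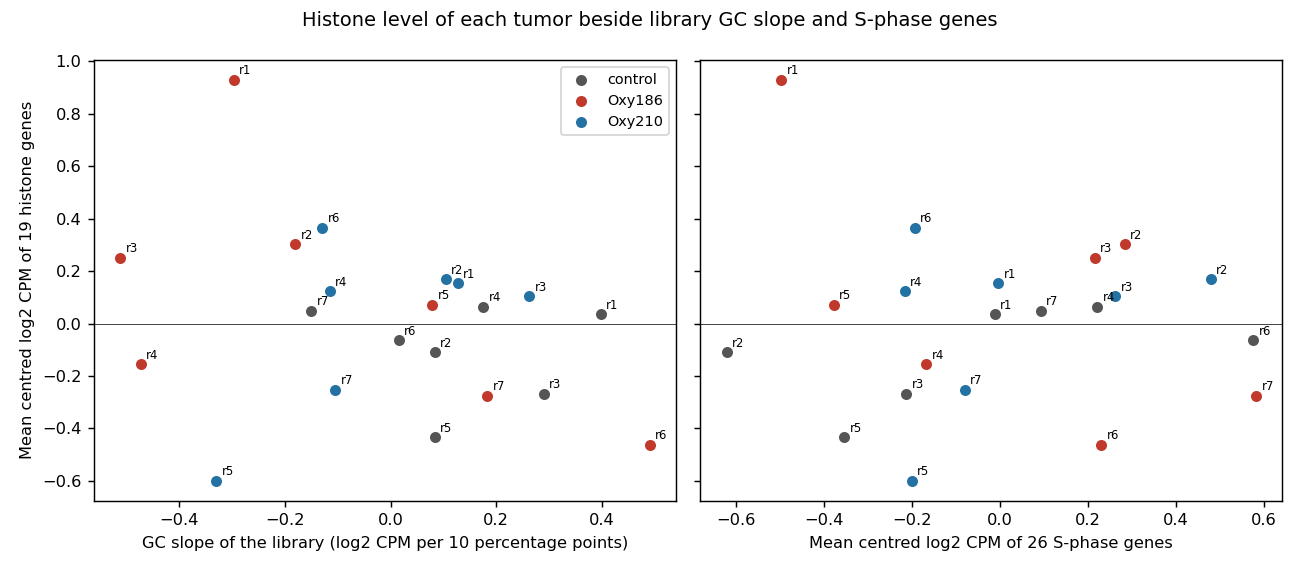
Mean centered log2 CPM of 19 histone genes (y axis) against the GC slope of the library (left, log2 CPM per 10 percentage points of GC) and against the mean centered log2 CPM of 26 S-phase genes (right), 1 point per tumor. Oxy186-treated sample r1 sits alone at 0.93, and the 4 samples r1-r4 have GC slopes between -0.51 and -0.18.

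The first comparison asked whether Oxy186 changed histone genes over all 7 treated tumors. It did not bring any member past the threshold, set at a fold change above 2 together with an adjusted p (Benjamini-Hochberg) of at most 0.05, in the quasi-likelihood test of edgeR. Of 18 members tested, 0 were called, beside 0% of all 16291 genes, and 2 members had an unadjusted p under 0.05, beside 3.79% of all genes. DESeq2 and limma voom also called 0. The members' log2 fold changes ran from -0.08 (H2BC11) to 1.09 (H4C14), with 15 of 18 above 0, beside 48.9% of all genes, and a median of 0.26 beside -0.01 for all genes. Without r1 the median was 0.01, so this shift rested on that tumor.

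H4C14, H4C5 and H4C9, all of which encode histone H4, had the smallest p-values in that comparison. H4C9 ranged from 9.63 to 20.3 CPM in control tumors (median 15.5) and from 8.91 to 36.7 CPM in Oxy186-treated tumors (median 24.6). The Oxy186 values fell on both sides of the control range, 4 above it, 1 below it and 2 inside it. Its log2 fold change was 0.55 (SE 0.29, adjusted p = 0.862 in edgeR). H4C14 had a log2 fold change of 1.09 (SE 0.44) and H4C5 of 0.85 (SE 0.36), with the same adjusted p. H2AC6 spread from 23.4 to 94.3 CPM under Oxy186 (median 44.8) against 27.6 to 54.0 CPM in control tumors (median 44.7), a spread that took in the whole control range. H1-2 and H2BC12 had log2 fold changes of 0.15 (SE 0.20) and -0.06 (SE 0.16).

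The second comparison asked the same of Oxy210. Of 17 members tested, 0 were called, beside 0% of 16396 genes, and 1 had an unadjusted p under 0.05, beside 13.8% of all genes. DESeq2 and limma voom again called 0. The median log2 fold change was 0.17 beside 0.01 for all genes, and 13 of 17 members were above 0, beside 51.3% of all genes. H4C14 ranged from 0.566 to 1.40 CPM in control tumors (median 0.670) and from 0.442 to 2.30 CPM under Oxy210 (median 1.48), and the groups overlapped. Its log2 fold change was 0.77 (SE 0.33, adjusted p = 0.324 in edgeR). H2AC11 was at 0.53 on the log2 scale (SE 0.26, adjusted p = 0.372 in edgeR), and H2BC4, whose counts may include an opposite-strand gene, one of -0.47 (SE 0.24, adjusted p = 0.382 in edgeR). H4C9 was at 0.12 (SE 0.21), with 9 to 23.3 CPM under Oxy210.

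The related compounds were then compared with each other at the same dose, as the single pair of compounds in the series. Of 18 members tested, 0 were called, beside 0% of 16361 genes, and 2 had an unadjusted p under 0.05, beside 4.06% of all genes. DESeq2 and limma voom called 0 as well. The median log2 fold change of Oxy186 over Oxy210 was 0.08, and -0.11 without Oxy186-treated sample r1. H1-2 had 13 to 29.9 CPM under Oxy186 (median 21.1) and 11.4 to 19.6 CPM under Oxy210 (median 13.9), with overlapping groups. Its log2 fold change of 0.43 had a 95% interval from 0.05 to 0.81, with an adjusted p of 1 in edgeR. H2BC4 had a log2 fold change of 0.57, with an interval from 0.03 to 1.11. For H4C5 the value was 0.69, with an interval from -0.06 to 1.44. The intervals of H1-2 and H2BC4 lay above 0, but they are not adjusted for the number of genes tested. For the other members the intervals leave room for differences in either direction, most widely for H4C8, whose interval ran from -0.52 to 1.58.

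**Figure D4:**
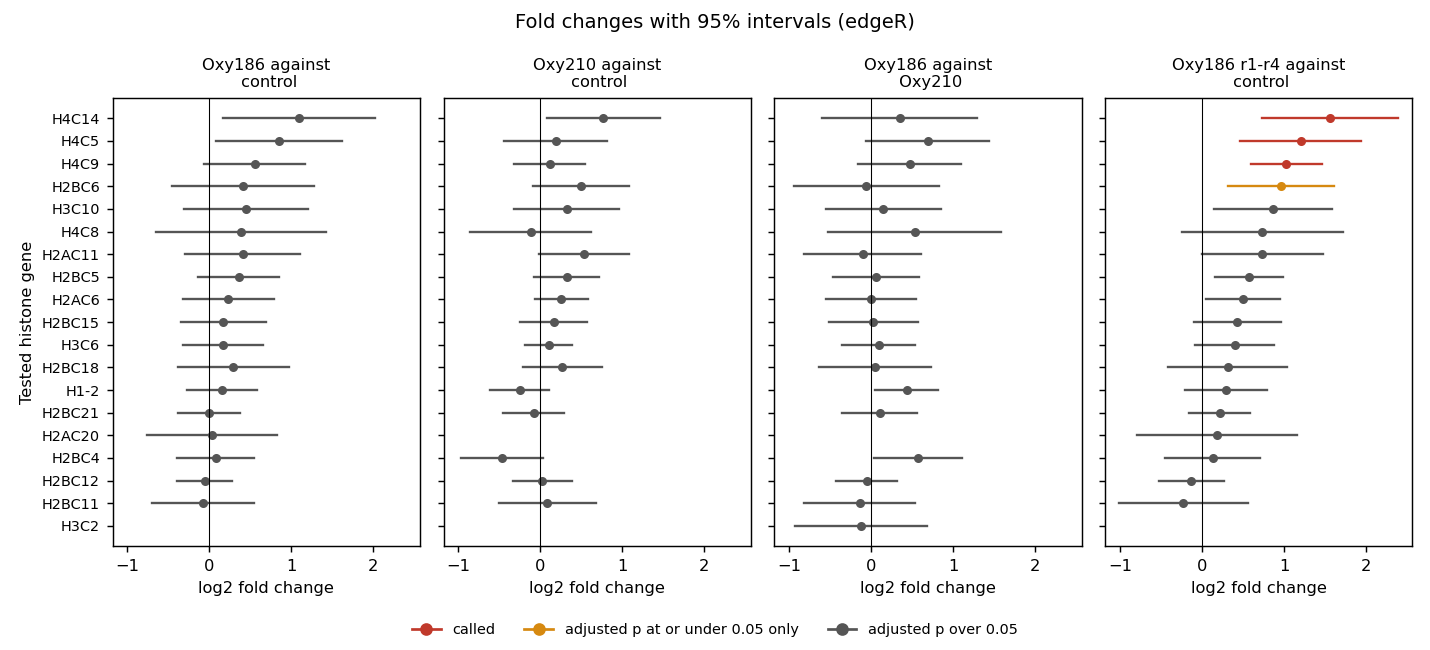
Log2 fold changes (points) with 95% intervals (lines) of the tested histone genes in the 4 comparisons, from edgeR. Called genes (red) appear only for Oxy186-treated samples r1-r4 against control, where H4C14, H4C5 and H4C9 lie at 1.57, 1.20 and 1.02.

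The study analysed Oxy186-treated samples r1-r4 apart from r5-r7 because of how these libraries looked in expression space. The next comparison therefore sets r1-r4 against the 7 control tumors, and since the 4 tumors were picked from the same measurements, its p-values are not independent of that choice. Histone H4 genes were the members that passed the threshold here. Of 18 members tested, 3 were called higher (H4C9, H4C14 and H4C5), beside 0.214% of 16852 genes, and 0 were called lower, beside 8.13%. At an adjusted p at or under 0.05 alone, 4 members were higher, beside 4.73% of all genes. The median log2 fold change of the members was 0.47 beside 0.01 for all genes, and 16 of 18 were above 0, beside 50.5%. Without r1 that median was 0.13.

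H4C9 had 408, 410, 519 and 423 counts in r1, r2, r3 and r4, which are 24.6, 28.9, 36.7 and 27 CPM. Control tumors had 148 to 288 counts and 9.63 to 20.3 CPM, so all 4 treated tumors lay above all 7 controls. Samples r5, r6 and r7 of the Oxy186 group had 12.4, 8.91 and 10.8 CPM, with r6 below the control range and the others inside it. The mean was 29.3 ± 5.24 CPM in r1-r4 (SD, n = 4) and 14.4 ± 4.11 CPM in control tumors (SD, n = 7), a log2 fold change of 1.02 (SE 0.20, adjusted p = 0.00338 in edgeR). Over the 21 other settings tried, the adjusted p of H4C9 ran from 5.29e-05 to 0.0193. Its fold change sat close to the limit of 2 and fell under it without r3 (log2 fold change 0.90) and without control r2, r3 or r5 (0.95, 0.94 and 0.97).

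H4C5 had 4.83, 2.40, 2.33 and 1.72 CPM in r1 to r4, above the 0.377 to 1.55 CPM of all control tumors. Its log2 fold change was 1.20 (SE 0.35, adjusted p = 0.0258 in edgeR). H4C9 and H4C5 were the 2 members whose groups did not overlap, both higher, beside 3.23% of all genes. H4C14 had 4.65, 2.47, 1.84 and 0.958 CPM, the last of them inside the control range of 0.566 to 1.40 CPM. Its log2 fold change was 1.57 (SE 0.39, adjusted p = 0.0119 in edgeR), on counts that cannot be separated from those of its copy H4C15. Both rested on r1, since without it the log2 fold change was 0.81 for H4C5 (adjusted p = 0.122 in edgeR) and 1.06 for H4C14 (adjusted p = 0.0688 in edgeR). H4C9, in contrast, was at 1.10 without r1, and was then the 1 member called. Leaving out control r6 raised the number of calls to 5, adding H2BC6 and H3C10.

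The remaining H4 gene tested, H4C8, had 70.5, 10.1, 12.7 and 25.5 CPM in r1 to r4, against 6.83 to 37 CPM in control tumors. Only r1 lay above the controls, and the log2 fold change was 0.74 (SE 0.46, adjusted p = 0.274 in edgeR), or -0.15 without r1. The largest value among all 4 H4 genes was thus found in r1 for H4C8, H4C14 and H4C5, and in r3 for H4C9.

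**Figure D5:**
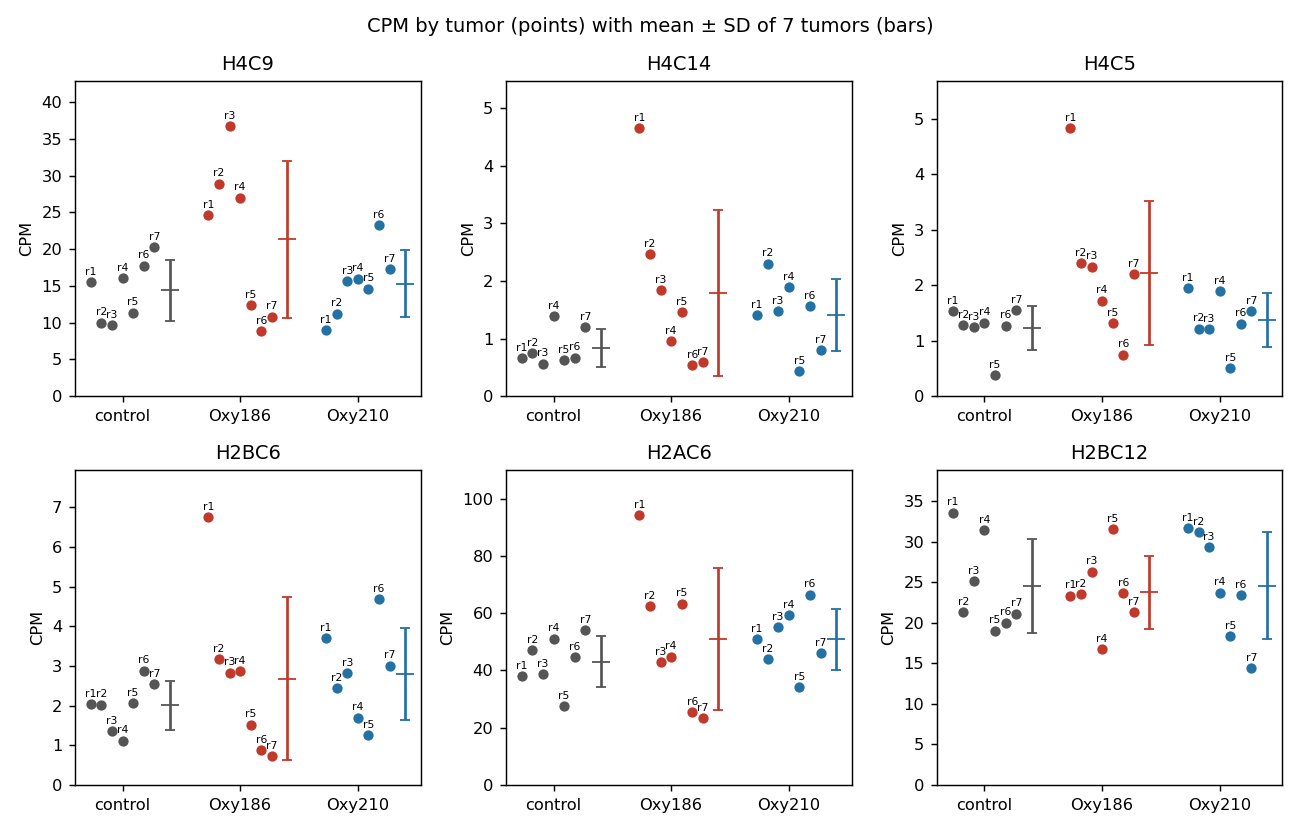
CPM of 6 histone genes in each tumor (points, labelled by replicate), with the mean ± SD of 7 tumors per group beside them. H4C9 lies at 24.6 to 36.7 CPM in Oxy186-treated r1-r4, above all control tumors, while H2BC12 lies at 16.8 to 26.3 CPM, inside or below the control range of 19 to 33.6 CPM.

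Among H2B genes, H2BC6 had 6.76, 3.17, 2.83 and 2.87 CPM in r1 to r4 and 1.12 to 2.88 CPM in control tumors, with r3 and r4 at the top of the control range. Its log2 fold change was 0.96 (SE 0.31), with an adjusted p of 0.0382 in edgeR and a fold change just under 2. Without r1 the log2 fold change was 0.56 (adjusted p = 0.196 in edgeR). Part of H2BC6 overlaps a gene on the opposite strand. H2BC5 had 31.7, 23.8, 19 and 18.5 CPM against 10.6 to 20.6 CPM, a log2 fold change of 0.57 (SE 0.20, adjusted p = 0.0513 in edgeR), or 0.39 without r1. H2BC12, the highest H2B gene per kb, had a log2 fold change of -0.13 (SE 0.18), and H2BC21, H2BC15, H2BC18, H2BC4 and H2BC11 had values from -0.23 to 0.43, none with an adjusted p at or under 0.05.

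Of the H2A genes, H2AC6 had 94.3, 62.4, 42.9 and 44.8 CPM against 27.6 to 54.0 CPM in control tumors. Samples r1 and r2 were above the controls, and r3 and r4 were among them (log2 fold change 0.50, SE 0.21, adjusted p = 0.106 in edgeR). H2AC11 was at 0.73 (SE 0.35, adjusted p = 0.147 in edgeR). Without r1 these log2 fold changes were 0.22 and 0.18. The H3 genes H3C10 and H3C6 were at 0.86 (SE 0.34) and 0.40 (SE 0.23), and the linker histone gene H1-2 at 0.29 (SE 0.24), all with adjusted p-values above 0.05 in edgeR. They were at 0.61, 0.13 and 0.11 without r1.

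Library base composition also differed in this comparison, and so did the small RNA RN7SL1. The GC slope was -0.51 to -0.18 in r1-r4 and -0.15 to 0.40 in control tumors. The summed level of the 27 small RNAs was 5.30 to 22.1 CPM in r1-r4 and 17.5 to 51.4 CPM in control tumors. Most of this sum was RN7SL1, with a mean of 29.8 of 32.9 CPM in control tumors. RN7SL1 was at -1.70 on the log2 scale (adjusted p = 0.0154 in edgeR). Of the 3 small RNAs tested, it was the 1 called lower, and 1 was above 0, so no general change of small RNAs is shown. The summed level of the 14 stroma and blood markers was 104 to 264 CPM in r1-r4, which takes in the 118 to 233 CPM of control tumors. When the GC trend of every library was taken out by an offset, H4C9, H4C14 and H4C5 had log2 fold changes of 1.71, 1.52 and 1.55 and stayed called, H2AC11 was called as well, and H2BC6 had 0.90 with an adjusted p of 0.125 in edgeR. In that fit 59 of 203 called genes were higher, against 36 of 1406 without offsets. H4C9, H4C5, H4C14 and H2BC6 have exon GC contents of 59.7%, 55.3%, 47.6% and 47.2%.

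The promoters of the tested H4 genes are shown because H4C9, H4C14 and H4C5 were the called members. Promoters (250 bases before to 50 after the start site) came from RefSeq on GRCh38.p14, where 60 of 65 members were matched. Motifs were searched on both strands. They were the TATA box (TATAAA), the box bound by NF-Y (CCAAT), the octamer (ATTTGCAT) and the end of the H4-specific promoter element (GGTCCG), which was picked after these sequences had been read. No motif contains another of the 4, although matches may overlap. The 100 bases before the start site follow, with matches in capitals.
H4C9 (chr6:27139182-27139281, + strand): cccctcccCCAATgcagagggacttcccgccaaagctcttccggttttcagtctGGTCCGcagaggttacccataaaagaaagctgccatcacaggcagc
H4C14 (chr1:149832557-149832656, + strand): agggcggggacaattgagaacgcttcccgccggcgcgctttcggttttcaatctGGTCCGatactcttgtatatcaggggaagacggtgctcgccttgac
H4C5 (chr6:26204510-26204609, + strand): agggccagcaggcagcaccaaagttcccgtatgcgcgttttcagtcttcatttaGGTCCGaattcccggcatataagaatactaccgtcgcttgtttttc
H4C8 (chr6:26285535-26285634, - strand): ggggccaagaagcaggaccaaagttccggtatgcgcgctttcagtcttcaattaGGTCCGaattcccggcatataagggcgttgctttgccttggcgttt

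In all 4 promoters GGTCCG began at position -46. It was found in 11 of 12 H4 promoters matched, on the forward strand between -47 and -44, in 3 of the 48 other histone promoters and in 11.3% of all 35116 promoters. The called genes and H4C8, which was not called, thus shared it. CCAAT was found in 51 of 60 histone promoters, beside 34.6% of all promoters, but in only 3 of 12 H4 promoters, H4C9 among them. TATAAA was found in 41 of 60, beside 11.5% of all promoters, and in none of the 4 shown. Only these exact letters were searched, so the 4 promoters may still hold a variant TATA box. The octamer was found in 11 of 15 H2A and 14 of 17 H2B promoters and in no H1 or H4 promoter, beside 1.77% of all promoters. These counts pool both strands. On the forward strand the octamer was found in 13 H2B promoters but in only 1 H2A promoter.

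Finally, genes that act on histone mRNAs and proteins were examined in r1-r4 against control, where 4.73% of all genes were higher and 15% lower at an adjusted p at or under 0.05. Of 20 genes for histone transcription and mRNA processing, 19 were tested, 1 was higher and 3 were lower at that threshold, and 0 passed the fold limit. LSM1, which takes part in histone mRNA decay, was higher (log2 fold change 0.81, adjusted p = 0.0127 in edgeR). MIF4GD, a partner of SLBP in histone mRNA translation, was lower (log2 fold change -0.89, adjusted p = 0.00404 in edgeR), with a value of -0.25 (adjusted p = 0.337) under GC offsets. SLBP itself was at 0.25 (SE 0.17) and NPAT, the coactivator of histone gene transcription, at 0.16 (SE 0.15), with adjusted p-values of 0.311 and 0.490 in edgeR. Of 14 histone chaperones, 2 were higher and none lower. These were ASF1A, which carries H3 and H4 (log2 fold change 0.54, adjusted p = 0.0144 in edgeR), and NAP1L1, which carries H2A and H2B (0.40, adjusted p = 0.0436 in edgeR), and under GC offsets their adjusted p-values were 0.263 and 0.559. Of 26 S-phase genes, none was higher and 1 was lower. This was CDT1, a licensing factor (log2 fold change -0.96, adjusted p = 0.0241 in edgeR, and 0.0697 without r1), and E2F1 followed with -0.74 (adjusted p = 0.0505), but both turned above 0 under GC offsets.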

How the data were processed

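RNA was extracted from tumors with a column kit, and libraries were made with the NEBNext Ultra II RNA kit from RNA of high integrity. Per the labels, the authors used Trimmomatic 0.39, STAR 2.7.6a and featureCounts of Subread 2.0.1 with GRCh38.p13 and GRCm39. They deposited raw counts of uniquely mapped reads per human gene, and log2 CPM values of control and Oxy186-treated r1-r4, made by the authors with filterByExpr and TMM. Log2 CPM recomputed from the counts differed from these by at most 4.97e-14 over 16852 genes.

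Counts were tested with edgeR 4.0.16 (quasi-likelihood, filterByExpr, TMM, no covariates) in R 4.3.3 across all genes, with 95% intervals from its standard errors, and tested on simulated data first. CPM and log2 CPM (prior count 2) used library sizes adjusted by TMM over all 21 tumors. Stem-loops, exon GC content and lengths came from GENCODE 44, and promoters from RefSeq. GC trends were splines (4 degrees of freedom) fitted to genes whose log2 CPM averaged at least 1, and a GC value existed for 99.8% of tested genes. Alternatives used limma 3.58.1 and DESeq2 1.42.0, other normalizations, filters and fits, a replicate block and left-out tumors. Leaving out single controls, or r1 from the full Oxy186 group and from correlations, was chosen after the data were seen.

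Members, lists and motifs were chosen with earlier results of these data known. Members are named if among the 12 highest, at an adjusted p at or under 0.05 in any comparison, among the 3 smallest p-values of a comparison, or near-identical. The 2 genes with the smallest p of each other list are named for r1-r4 only, and SLBP and NPAT were added for their role. The authors' gene set tables were not used here. A gene outside the family, picked for its likeness to the members' mean, is not reported here.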

Additional observations from a re-analysis of the deposited data

Results flagged for a closer look

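Dixon's ratio was computed for the named members in each group of 7 tumors, 45 groups in all, and 3 single values stood apart from the rest of their group, where chance alone gives about 2.2. H2AC11 was low in control r3, at 0.13 on the log2 CPM scale beside a median of 1.07 in the other tumors of the group. H4C5 was low in control r5, at -0.97 beside 0.52, and in Oxy210-treated r5, at -0.65 beside 0.63. The low control value belongs to a gene called in r1-r4. Without control r5, H4C5 and H4C14 were the 2 members called.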

How the results depend on the processing

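For Oxy186 against control, Oxy210 against control and Oxy186 against Oxy210, 0 members were called under every alternative run. For r1-r4 against control the count of 3 was 3 or 4 under the other normalizations, no filter, DESeq2, limma voom, all 21 libraries in one fit, GC offsets and the adjusted p alone. It was 1 with at least 10 counts in every library, a filter that leaves 14 members, and 1 with the replicate block with GC offsets. The filter at 10 counts removed H4C5 and H4C14 before testing, with 6 counts in control r5 and 9 in control r1. Leaving out single tumors gave 1 to 5 calls, with 1 without Oxy186 r1 and 5 without control r6. H4C9 passed the adjusted p in all of these fits. Replicate numbers did not pair the tumors, since only 4 of 21 same-numbered pairs correlated above 0.1 (range -0.398 to 0.329), and the replicate block alone gave 2 calls, H4C9 and H2BC6. Directions turned for CDT1 (0.16 with GC offsets and 0.36 with block and GC offsets), E2F1 (0.095 and 0.28) and SNORA73B (0.036 and 0.22, with a range from -0.74 to 0.013 over left-out tumors, the latter without Oxy186 r1), and the cause was not tested beyond the change of fit. The 46 members below the filter on low counts had at most 18 counts in any tumor, and with no filter 56 to 60 members were tested.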

Other observations

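In Oxy186-treated r1-r4 against control, 13 histone genes outside the members' symbol rule, H1-10, H2AX, H2AW and H2BU1 among them, were tested by edgeR. Of these 13 genes, 2 were called lower and 0 higher, beside 8.13% and 0.214% of all genes. Their median log2 fold change was -0.12. H1-10, a linker histone variant, fell from 75.4 to 14.9 CPM (-2.35 on the log2 scale, adjusted p = 0.00095 in edgeR), and H2AX, the variant phosphorylated at DNA breaks, fell from 69.9 to 19.4 CPM (log2 fold change -1.85, adjusted p = 0.00182 in edgeR). With GC offsets these values were -0.73 and -0.48, and neither gene was called. The small nucleolar RNA SNORA73B was at -0.30 on the log2 scale (adjusted p = 0.649 in edgeR).

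Among the genes outside the family whose log2 CPM followed the mean of the 19 histone genes most closely over the 21 tumors were THNSL1 (Pearson r = 0.809), HSPB8 (0.795), N6AMT1 (0.787), GADD45B (0.759), SFT2D1 (0.756), AC104825.1 (0.755), P4HA3 (0.738), HIBCH (0.738) and STAMBPL1 (0.734). They were chosen as the highest among genes whose log2 CPM averaged at least 1, and r1 of the Oxy186 group is the tumor farthest from the mean. Without r1 their r ran from 0.629 (HSPB8) to 0.761 (P4HA3).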
